A study of Mus musculus with 8 samples.

Results

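The genes for mitochondrial ribosomal proteins were examined in single endocardium cells of mouse embryos with and without *Sox17*. The members were all genes whose name on the array starts with *Mrpl* or *Mrps* followed by a digit. There were 77 such genes among 35526 genes with a usable probe, measured by 103 probes, and a gene with several probes was represented by its brightest probe over all arrays. The data consist of 8 arrays, each for 1 cell of the heart tube at E8.5 with 9 somites, whose cDNA was amplified and transcribed into labelled RNA. Of these cells, 4 were wild type (WT, Mesp1+/+_Sox17flox/flox) and 4 were *Sox17* knockout (KO, Mesp1Cre/+_Sox17flox/flox), so that all 8 carried the floxed *Sox17* alleles and the Cre allele marked the KO cells alone. *Mesp1*-Cre acts in early mesoderm, so the deletion is not limited to the endocardium, and KO cells also carry 1 copy of *Mesp1* in which Cre was inserted. No source says which embryo a cell came from. A genotype was therefore treated as 1 sample, no test was made, and differences between genotypes are set beside the SD between cells.

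Mitochondria carry ribosomes of their own, which translate the few proteins still encoded in mitochondrial DNA, all of them subunits of the respiratory chain and the ATP synthase. The ribosomal RNA of these particles comes from mitochondrial DNA, whereas every ribosomal protein is encoded in the nucleus, made in the cytosol and imported. Many of the proteins descend from bacterial families, and others were added to the mitochondrial particle later and have no bacterial relative. The heart depends heavily on oxidative phosphorylation after birth, and the early embryonic heart less so. The question asked of these genes was whether *Mrps34* and *Mrps16*, at opposite ends of the range of differences, moved alone.

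Nuclear genes for mitochondrial proteins are known targets of NRF1, of ETS factors such as GABPA, and of YY1. To show what the members share at their start sites, promoters from RefSeq (build GRCm38.p6, 250 bases before the gene start to 50 after it) were searched on both strands for 3 letter strings, namely GCGCA and GCGC with any 1 base between them (NRF1), CCGGAAG (ETS) and AAGATGGCG (YY1). The table held 74 promoters of 68 members, some of them overlapping promoters of the same gene, and none for the other 9 members, *Mrps34* among them. The NRF1 string was in 13 of the 74 promoters (17.6%, against 4.6% of all 32851 promoters), the ETS string in 25 (33.8%, against 8.86%) and the YY1 string in 8 (10.8%, against 1.4%). At least 1 of the strings was found in 40 member promoters (54.1%, against 13.6%), and 6 held more than 1. The member promoters were also richer in G and C, with a median of 58.5% against 52.7%. The NRF1 and ETS strings are themselves rich in these letters, and the YY1 string is less so. A match is a description of letters and does not show that a factor binds there. Examples from genes described below follow, written 5′ to 3′ on the strand of the gene with the matched string in capitals, as found or as its reverse complement.
Mrps21, NRF1 string, chr3:95871571-95871630 (minus strand): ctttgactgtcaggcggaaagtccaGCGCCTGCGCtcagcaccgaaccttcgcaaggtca
Mrps18a, ETS string, chr17:46110952-46111003 (plus strand): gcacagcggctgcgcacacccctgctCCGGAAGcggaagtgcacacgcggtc
Mrpl52, ETS string, chr14:54426836-54426895 (plus strand): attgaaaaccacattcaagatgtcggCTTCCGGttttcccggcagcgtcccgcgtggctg

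The array reads a transcript through a probe, usually near its 3′ end, where cDNA amplified from 1 cell is best covered. Of the 77 probes used, 26 (33.8%) contained a polyadenylation signal (AATAAA or ATTAAA), compared with 15.7% of the probes used for all genes. The probe of *Mrps16* was 1 of them, and its end is shown with the signal in capitals.
Mrps16, probe end: gggttttaaggatcAATAAAtggagttt
According to the files, which place probes on mm9, 64 of the used probes lay on the chromosome of their gene, 7 had no position, and 6 lay on another chromosome. The last were those of *Mrpl15*, *Mrpl23*, *Mrpl30*, *Mrpl48*, *Mrps26* and *Mrps36*. Whether these 6 read another copy of the sequence was not tested.

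Some features of the arrays bear on all of these values. After scaling between arrays, a floor of 50 was applied to the intensities before log2, so that the lowest possible value was 5.64 and values at this floor have no order. Separately, the scanner software called each spot well above background or not, and a spot could be so called and still lie at the floor. It called 9065 to 14186 genes well above background in WT cells, compared with 10222 to 13209 in KO cells. WT 1 had the fewest genes and was marked for evaluation by the scanner software. Both probes of *Sox17*, the deleted gene, were at the floor and not well above background in all 8 cells, so that the array did not check the genotype. Of 10 endothelial or endocardial markers, 7 to 10 were well above background in WT cells and 6 to 9 in KO cells, with a log2 summed level of 13.29 to 15.12 and 12.78 to 16.28. Cardiomyocyte markers were found in all cells as well, with 3 to 7 of 9 in both genotypes and a log2 summed level of 8.31 to 15.06 in WT and 9.97 to 15.57 in KO cells, although *Tbx5* was not well above background and *Myh6* was at the floor in every cell. Their part in the results was not tested. Every cell had 2 of 3 smooth muscle markers well above background, whereas the blood and endoderm markers were at the floor in all 8 cells. The arrays shared 1 slide and 1 scan, and since WT cells lay in a different column of the slide from KO cells, genotype cannot be told apart from position.

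Nearly all members were detected in at least some cells. In at least 1 cell, 75 of the 77 members (97.4%) were well above background, compared with 57.1% of all genes. In all 8 cells, however, only 19 members (24.7%) were, compared with 17.6% of all genes, while 44 were in 4 to 7 cells and 12 in 1 to 3. Most of all genes were at or near the floor. At a mean log2 value of at least 8 over the cells the order was reversed. There, 18 of 49 members (36.7%) were well above background in all 8 cells, compared with 67.3% of 4972 genes. *Mrpl21* and *Mrpl35*, large subunit proteins of bacterial families, were not well above background in any cell, and together with *Mrpl37* they were at the floor in all 8. Only 10 members were above the floor in every cell.

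The number of members detected was spread widely within each genotype. WT 1 had 29 members well above background, WT 2 had 67, WT 3 had 53 and WT 4 had 65. KO 1 had 48, KO 2 had 47, KO 3 had 56 and KO 4 had 65. The genotypes thus overlapped, with medians of 59.0 in WT and 52.0 in KO cells, and WT 1 lay below all other cells. The median log2 value over the members was 5.64, 9.95, 7.11 and 10.12 in WT 1 to 4, and 6.03, 5.64, 10.04 and 8.76 in KO 1 to 4. In WT 1 and KO 2 more than 50% of the members were therefore at the floor, namely 58 of 77 and 39 of 77. The share of all genes detected was also lowest in WT 1 (25.5%), and it was highest in WT 4 (39.9%). The part of this difference in detection in the results for the members was not tested.

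**Figure D1:**
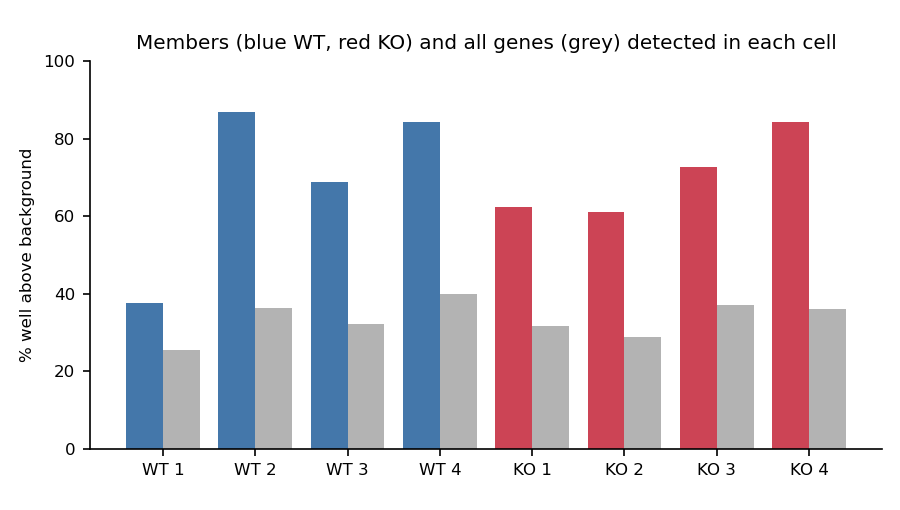
Share of the 77 members (blue for WT, red for KO) and of all 35526 genes (grey) called well above background in each of the 8 cells, in percent, 1 array per cell. The share of members ran from 37.7% in WT 1 to 87.0% in WT 2 and exceeded that of all genes in every cell.

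**Figure D2:**
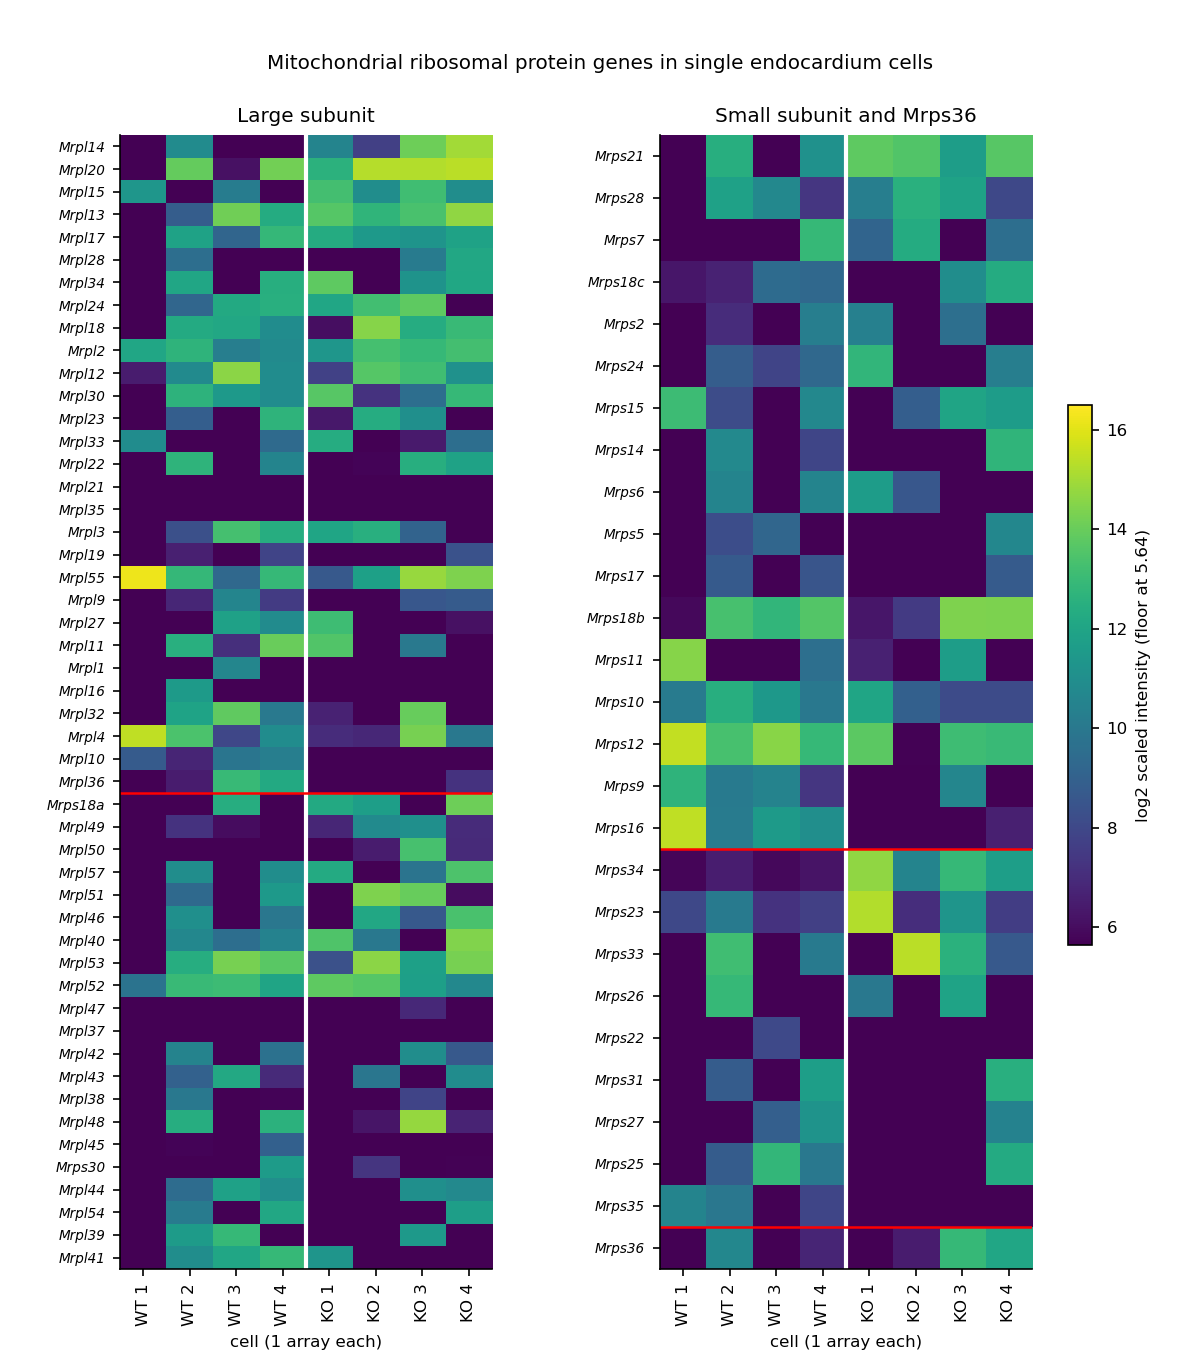
Log2 scaled intensity of all 77 members (rows) in the 8 cells (columns; the white line separates WT from KO), with the floor of 5.64 in the darkest colour. Red lines separate proteins listed as of bacterial families (above) from those listed as without a bacterial relative (below; *Mrps18a* and *Mrpl47* there do have one) and, at right, *Mrps36*; rows within a block are ordered by the KO minus WT difference, and dark and bright cells alternate within both genotypes in most rows.

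Individual cells differed widely in these genes. Between 2 cells of the same genotype, a median of 50.6% of members were at least 5-fold apart (range 39.0% to 64.9% over 12 pairs), compared with a median of 51.3% for the 16 pairs that joined both genotypes (range 41.6% to 58.4%). Pairs share cells, so these values are a description. The range within genotypes thus included that across genotypes. For the 49 members with a mean log2 value of at least 8, the medians were 56.1% within and 60.2% across genotypes, and for all 4972 genes above that level 35.4% and 35.0%. The median SD between cells was 2.82 on the log2 scale for all members, and 3.14 for the 49 members against 1.94 for the 4972 genes. Of the 77 members, 52 were at the floor in at least 1 cell of both genotypes.

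Over all members, differences between the genotypes ran in both directions. The KO minus WT difference of mean log2 values was above 0 for 37 members, below 0 for 37 and 0 for 3, with a median of 0.00 and quartiles of -1.02 and 1.74. The median over all genes was 0.00 as well. For 58 of the 77 members the difference was smaller than the SD between cells. At least 5-fold (2.32 on the log2 scale) separated the genotype means of 18 members, of which 9 were higher and 9 were lower in KO cells (11.7% each). Over all genes on the array, most of which were at or near the floor, 1.84% were at least 5-fold higher and 1.86% at least 5-fold lower. Over the genes with a mean log2 value of at least 8, the shares were 8.35% higher and 6.6% lower, and of the 49 members above that level 7 (14.3%) were higher and 6 (12.2%) lower. These 49 members had a median difference of 0.67, with 31 above 0 and 18 below 0, and the 4972 genes had a median of 0.30.

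The count depended on single cells. Without WT 2 the number of members at least 5-fold higher in KO cells went from 9 to 21, without WT 4 to 16, without KO 1 to 15 and without KO 4 to 14, whereas without WT 1 it was 8. The number lower went to 6 without KO 2 and to 12 without KO 3. Without WT 2 the share higher was 34.7% for the 49 members and 11.1% for all genes of the same level, and without WT 1 it was 12.2% and 6.17%. The share lower was 18.4% and 9.29% without KO 3, and 6.12% and 6.58% without KO 2. WT 2 and WT 4 were the cells with the fewest members at the floor (15 and 16). Of the 9 members higher in KO cells, 6 were at least 5-fold higher whichever cell was left out, namely *Mrps34*, *Mrpl14*, *Mrpl20*, *Mrps21*, *Mrpl15* and *Mrps18a*. Of the 9 lower, 4 were at least 5-fold lower whichever cell was left out, namely *Mrps16*, *Mrpl41*, *Mrps9* and *Mrpl10*. The same share over all genes was not computed, so these 2 counts have no reference.

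**Figure D3:**
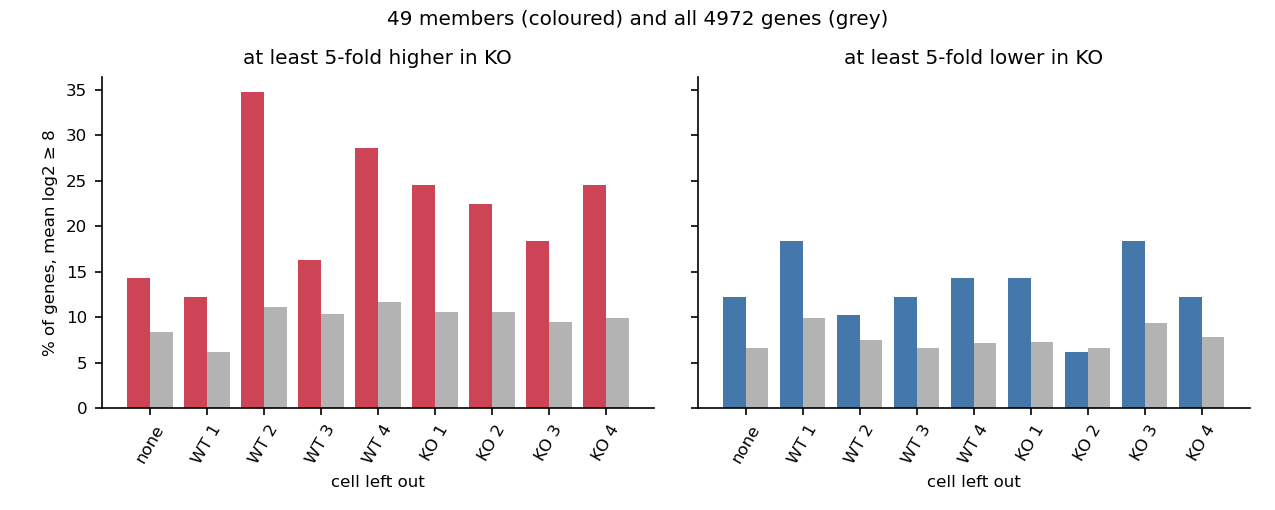
Percent of genes at least 5-fold higher (left panel) or lower (right panel) in KO than in WT cells, with no cell or each cell in turn left out, for the 49 members (coloured) and all 4972 genes (grey) with a mean log2 value of at least 8. The share of members higher in KO cells ran from 12.2% without WT 1 to 34.7% without WT 2, and the share lower from 6.12% without KO 2 to 18.4%.

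*Mrps34*, a small subunit protein without a bacterial relative that stabilizes the small subunit, had the largest difference in the direction of the KO cells. Its probe (chr17:25033156-25033215, plus strand) had log2 values of 5.80, 6.52, 5.86 and 6.21 in WT 1 to 4, and of 14.68, 10.53, 12.93 and 11.73 in KO 1 to 4. All 8 cells were well above background, the WT cells lay within 1 log2 unit of the floor, and no KO cell came near them. The difference was 6.37 with an SD between cells of 1.27 (82.7-fold), and it ran from 5.63 without KO 1 to 7.02 without KO 2. *Mrps34* was the only member whose KO cells were all above the WT cells, a pattern seen for 0.645% of all genes and 4.02% of genes with a mean log2 value of at least 8.

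*Mrps16*, a small subunit protein of a bacterial family, had the largest difference in the other direction. Its probe (chr14:21210454-21210513, minus strand) read 15.45, 10.16, 11.56 and 11.00 in WT 1 to 4, and 5.64, 5.64, 5.64 and 6.59 in KO 1 to 4. It was well above background in all 4 WT cells and in 2 KO cells, and only KO 4 among KO cells was above the floor. The difference was -6.16 with an SD between cells of 1.69, and it ran from -6.79 without WT 2 to -5.03 without WT 1, the cell with the highest value. KO cells below all WT cells were found for *Mrps16* and *Mrpl10* among the members, and for 0.144% of all genes and 0.724% of genes with a mean log2 value of at least 8. The genes that neighbour either locus were *Spsb3*, *Eme2*, *Nme3* and *Mapk8ip3* around *Mrps34* and *Fam149b*, *Dnajc9*, *Cfap70* and *Anxa7* around *Mrps16*. None was 5-fold apart, with differences from -1.30 (*Fam149b*) to 0.85 (*Spsb3*). However, *Eme2* and *Cfap70* were at the floor in all 8 cells and could show no difference, and *Fam149b* was above the floor in WT 2 alone.

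Without *Mrps34* and *Mrps16*, the other 75 members gave 8 higher and 8 lower by at least 5-fold, a median difference of 0.00 and a range from -3.34 to 4.88. *Mrps34* and *Mrps16* thus were not the only members past 5-fold. They stood at either end of the ranking. With *Mrpl10* they were the only 3 members whose cells did not overlap between the genotypes. The same 3 were the only members past 5-fold with a difference of more than 2 times the SD between cells. *Mrps34* and *Mrps16* were named with their differences already known, so that their places here are a description only. The study's own lists of probes at least 5-fold apart in these cells hold 8 members, 5 higher and 3 lower, which were chosen on the same arrays and are no independent evidence.

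**Figure D4:**
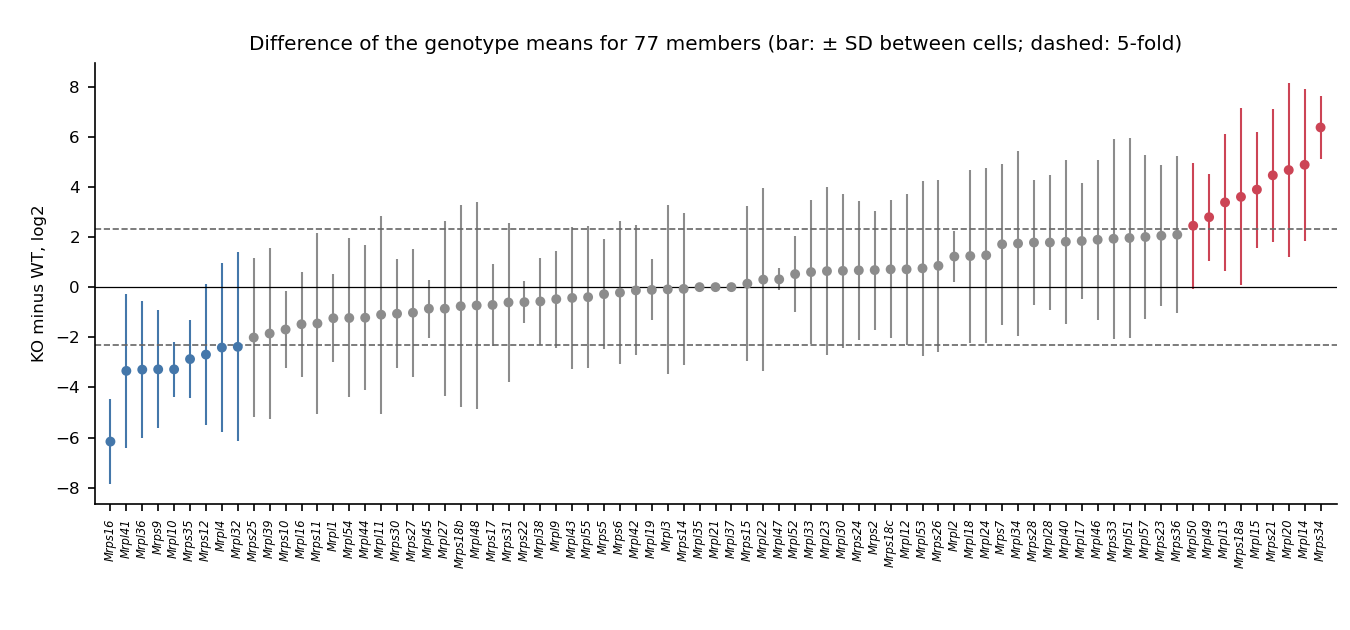
KO minus WT difference of mean log2 values for the 77 members, ranked from the lowest to the highest, with bars of ± 1 SD between cells (pooled over genotypes) and dashed lines at 5-fold; 9 members past the line are red (higher in KO) and 9 blue (lower). The bars of most members cross 0, whereas *Mrps16* at -6.16 and *Mrps34* at 6.37 lie apart from the rest.

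Among large subunit proteins, 7 of 50 were at least 5-fold higher and 5 at least 5-fold lower, with a median difference of 0.15. *Mrpl14*, which lies at the interface with the small subunit, was at the floor in WT 1, WT 3 and WT 4 and at 10.89 in WT 2, and read 10.55, 7.69, 14.11 and 15.00 in KO 1 to 4. KO 2 was below WT 2, so the genotypes overlapped. The difference was 4.88 (SD between cells 3.02; probe at chr17:45835317-45835376), and it ran from 3.83 without KO 4 to 6.26 without KO 2. *Mrpl20*, whose bacterial relative takes part in assembly of the large subunit, read 5.64, 13.93, 6.12 and 14.18 in WT cells, and 12.60, 15.30, 15.27 and 15.37 in KO cells. The WT cells fell into a low and a high pair, and only the low pair was apart from the KO cells. The difference was 4.67 (SD 3.47; from 3.23 without WT 1 to 6.07 without WT 4), while a second probe of the gene was not well above background in any cell.

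*Mrpl15*, of a bacterial family, was at 11.33 and 10.22 in WT 1 and WT 3 and at the floor in WT 2 and WT 4, and the KO cells spanned 10.98 to 13.26. The difference was 3.89 (SD 2.31; from 3.04 without WT 2 to 4.93 without WT 1). This probe is 1 of those placed on another chromosome (14, with the gene on 1), and a second probe, on chromosome 1, had a difference of 2.56 with all WT cells at the floor. *Mrpl13*, also of a bacterial family, read 5.64, 8.85, 14.14 and 12.34 in WT 1 to 4, and the KO cells spanned 12.74 to 14.71. Its difference of 3.38 (SD 2.73) rested on WT 1 and was 1.84 without that cell. *Mrpl49*, without a bacterial relative, was lower in WT cells (from 5.64 to 7.25) than in KO 2 and KO 3 (10.85 and 11.06), while KO 1 and KO 4 (6.81 and 7.0) lay within the WT range. The difference was 2.79 (SD 1.74; 2.08 without KO 3), and a second probe gave 0.65.

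*Mrps18a*, a relative of bacterial S18, belongs to the large subunit in spite of its name. It was at 12.42 in WT 3 and at the floor in the other WT cells, and read 12.24, 11.73, 5.64 and 14.12 in KO cells, a difference of 3.60 (SD 3.53; from 2.53 without KO 4 to 5.36 without KO 3). Just past 5-fold was *Mrpl50*, not well above background in any WT cell and 5.46-fold higher in KO cells with the floor used. KO 1 was at the floor as well, so that this fold is no lower bound. *Mrpl50* owed its place to KO 3 (13.36), since without that cell the log2 difference was 0.69. *Mrpl50*, and *Mrpl32* and *Mrpl4* below, were added after their values were seen.

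In the other direction, *Mrpl10*, which anchors the stalk of the large subunit, read 8.76, 6.78, 9.86 and 10.30 in WT cells and was at the floor in all 4 KO cells, although its probe was called well above background in each of them. The difference was -3.28 (SD 1.11; from -3.99 without WT 2 to -2.82 without WT 4). A second probe of *Mrpl10*, detected in 3 cells, gave -0.84. *Mrpl41*, without a bacterial relative, was at the floor in WT 1, spanned 10.96 to 12.93 in WT 2 to 4, and was at the floor in all KO cells except KO 1 (11.29). The difference was -3.34 (SD 3.06; from -4.93 without WT 1 to -2.50 without WT 4), and a second probe gave 0.30.

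*Mrpl36*, of a bacterial family, read 5.64, 6.47, 12.95 and 12.23 in WT cells, and all KO cells were at the floor except KO 4 (7.22). Its difference of -3.29 (SD 2.74) was -2.08 without WT 3. *Mrpl4* (-2.41, SD 3.36) and *Mrpl32* (-2.38, SD 3.77) were just past 5-fold, with KO 3 at 14.27 and 13.97 among the highest cells of each gene. Without WT 1 the difference of *Mrpl4* was -1.24, and without WT 3 that of *Mrpl32* was -1.22. The nearest members that fell short of 5-fold were *Mrps25* (-2.01) and *Mrps36* (2.09).

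Among small subunit proteins, 2 of 26 (7.69%) were at least 5-fold higher and 4 (15.4%) at least 5-fold lower, with a median difference of -0.25. Over genes with a mean log2 value of at least 8 the shares were 8.35% and 6.6%, and over all genes 1.84% and 1.86%. Whether the subunits differ was not tested. *Mrps21*, of a bacterial family, was the other member higher besides *Mrps34*. It was at the floor in WT 1 and WT 3, at 12.46 and 11.13 in WT 2 and WT 4, and at 13.80, 13.55, 11.70 and 13.67 in KO cells. KO 3 was below WT 2. The difference was 4.46 (SD 2.64; from 3.43 without WT 1 to 5.71 without WT 2). A probe that the files name only by a transcript (ENSMUST00000067298), and which the rule therefore leaves out, lies at the 3′ end of *Mrps21* and had a difference of 3.99 (SD 2.27).

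*Mrps9*, of a bacterial family, read 12.71, 10.09, 10.49 and 7.38 in WT cells and was at the floor in KO cells except KO 3 (10.64). The difference was -3.28 (SD 2.35; from -4.53 without KO 3 to -2.43 without WT 1). *Mrps35*, without a bacterial relative, was at 10.54, 9.95, 5.64 and 7.91 in WT cells and not well above background in any KO cell. With the floor used it was 7.29-fold lower in KO cells (log2 difference -2.87, SD 1.57; -2.19 without WT 1). WT 3 was at the floor as well, so that this fold is no lower bound. *Mrps12*, the protein of the decoding centre, was bright in all cells (from 12.91 to 15.52 in WT, and 13.75, 13.13 and 13.00 in KO 1, KO 3 and KO 4) except KO 2, at 5.72. Its difference of -2.69 (SD 2.81) was -0.80 without KO 2.

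By origin, both proteins of bacterial families and those without a bacterial relative held members past 5-fold in either direction. The counts below are of few genes. For reference, 1.84% of all genes were higher and 1.86% lower by this fold, and 8.35% and 6.6% of genes with a mean log2 value of at least 8. In the large subunit, 4 of 29 proteins of bacterial families were higher and 4 lower, with a median difference of 0.30, and of the 21 listed as without a bacterial relative 3 were higher and 1 lower, with a median of 0.00. That list held *Mrps18a* and *Mrpl47*, which are relatives of bacterial S18 and L29. In a count added later with both moved, 5 of 31 proteins of bacterial families were higher and 4 lower (median 0.31), and 2 of the remaining 19 were higher and 1 lower (median -0.13). In the small subunit, 1 of 17 was higher and 3 were lower, with a median of -0.22, and of the 9 without a bacterial relative 1 was higher and 1 lower, with a median of -0.60. *Mrps36* was placed in neither list, since its product is now assigned to another mitochondrial complex. The members with and without a promoter string likewise held differences in both directions. Those with the NRF1 string (13 genes) had a median difference of 0.65, against 0.00 without it. Those with the ETS string (25 genes) had 0.60, against -0.13. With the NRF1 string 2 members were at least 5-fold higher and 2 lower, and so it was with the ETS string. Of the 55 members without the NRF1 string 4 were higher and 5 lower, as were 4 and 5 of the 43 without the ETS string. The 8 with the YY1 string had a median of -0.06, against 0.22. Members with the NRF1 or ETS string were also brighter, with median log2 values of 9.18 and 9.14 against 8.29 and 8.13. The part of this brightness in the medians was not tested.

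Among the 19 members well above background in all cells, the SD over the 8 cells was smallest for *Mrpl2* (1.15), *Mrpl52* (1.43), *Mrps10* (1.69), *Mrpl10* (2.03) and *Mrpl17* (2.36). *Mrpl2*, at the centre where peptide bonds form, ran from 10.30 to 12.70 in WT and from 11.33 to 13.29 in KO cells, with a difference of 1.22 (SD between cells 1.02). *Mrpl52* ran from 9.77 to 13.07 and from 10.71 to 13.82, with a difference of 0.52 (SD 1.52), and *Mrps10* from 9.98 to 12.43 and from 8.11 to 12.02, with a difference of -1.69 (SD 1.54). In these 3 genes the genotypes overlapped. *Mrpl17* spanned 11.26 to 12.31 in KO cells but 5.64 to 12.89 in WT cells, and its difference of 1.84 fell to 0.42 without WT 1. The bright probe of *Mrpl55* ran from 9.31 to 16.24 in WT and from 8.67 to 14.84 in KO cells, with a difference of -0.40 (SD 2.84) that was 0.85 without KO 1.

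**Figure D5:**
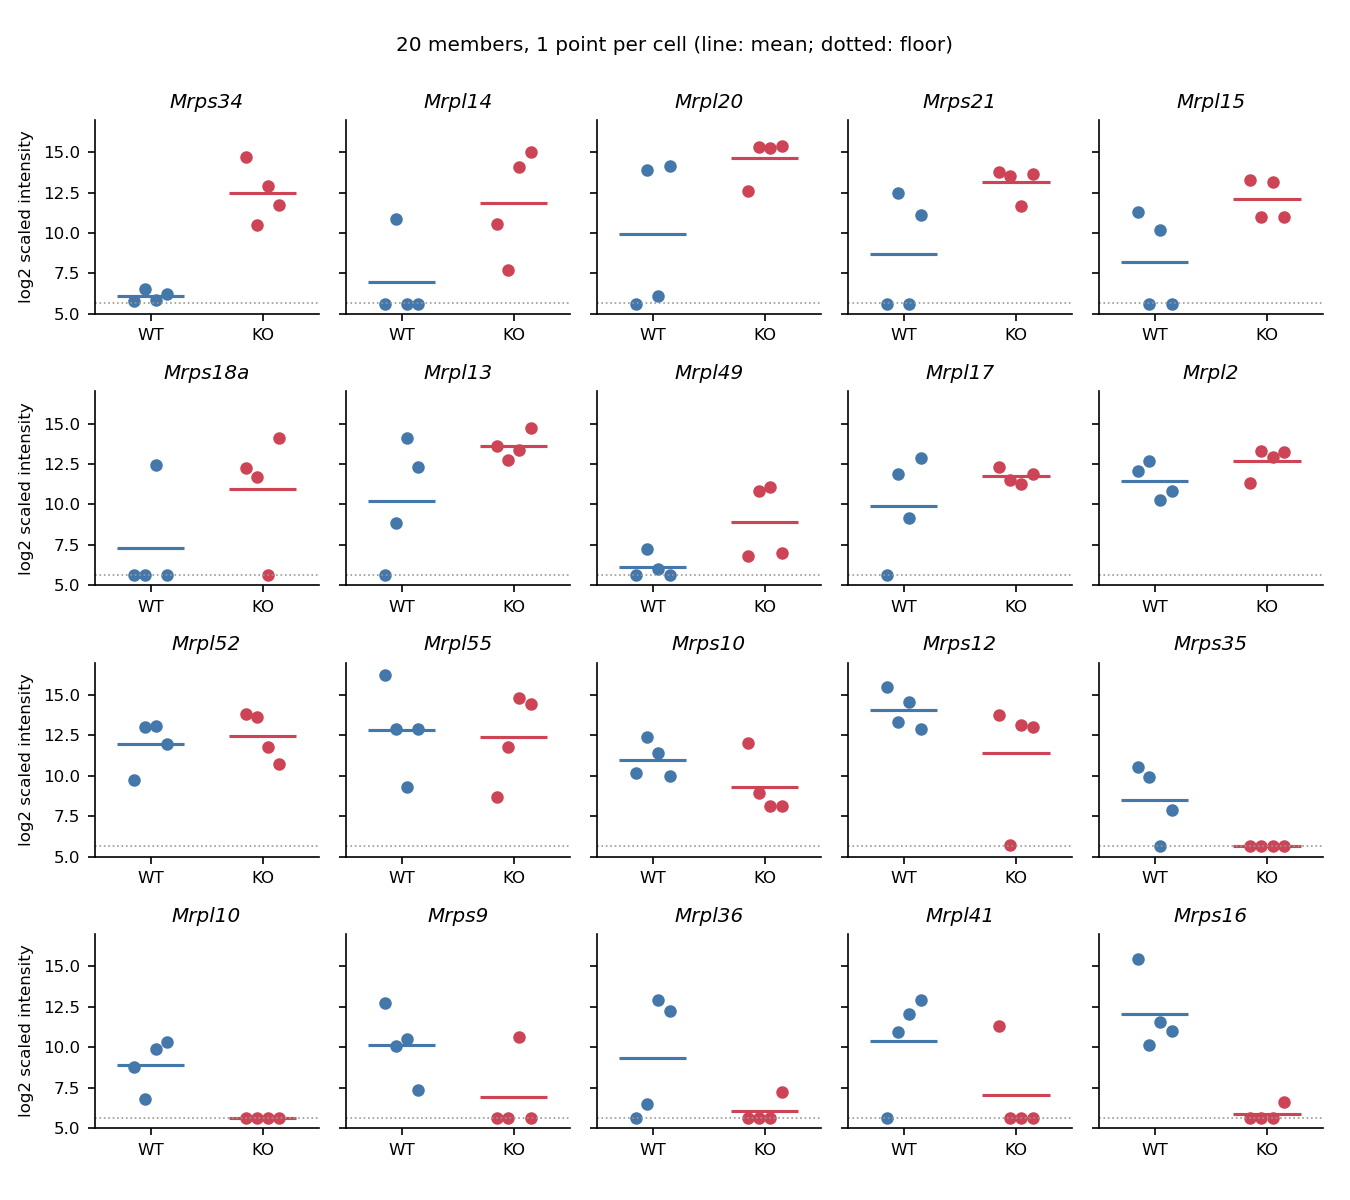
Log2 scaled intensity of 20 members in 4 WT (blue) and 4 KO (red) cells, 1 point per cell, with the mean as a line and the floor of 5.64 dotted. *Mrps34*, *Mrps16* and *Mrpl10* are the 3 panels without overlap between the genotypes, and in most other panels with distant means the cells of at least 1 genotype are split between the floor and high values.

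Beyond the members, 42 other genes of mitochondrial translation and of the steps around it were read. At least 5-fold higher in KO cells were 2 of them (4.76%), and at least 5-fold lower were 5 (11.9%). The shares were 1.84% and 1.86% over all genes, and 8.35% and 6.6% over genes with a mean log2 value of at least 8. The 42 genes had a median difference of -0.01, and none was without overlap. The difference was above 0 for 11 of them, below 0 for 21 and 0 for 10. Of 6 mitochondrial ribosomal proteins under other names, *Ict1*, a peptide release factor built into the large subunit, was higher, with 5.76, 8.37, 5.64 and 5.80 in WT and 15.07, 6.42, 13.75 and 9.00 in KO cells (difference 4.67, SD 3.01). *Ptcd3* (-4.35, SD 2.88) and *Dap3* (-2.85, SD 3.27), both in the small subunit, were lower. *Ptcd3* read 5.64, 13.61, 12.79 and 12.34 in WT and 6.35, 5.64, 9.33 and 5.64 in KO cells, so that WT 1 lay among the KO cells. *Dap3*, a GTP-binding protein also linked to cell death, read 5.64, 11.96, 12.53 and 12.87 in WT 1 to 4, and 6.99, 12.48, 6.49 and 5.64 in KO 1 to 4.

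Of 21 factors for assembly and rRNA, the RNA helicase gene *Dhx30* was higher (3.33, SD 1.84). *Rpusd4*, for a pseudouridine synthase of mitochondrial rRNA, was at the floor in all KO cells and not well above background in them. With the floor used it was 8.26-fold lower (log2 difference -3.05). WT 1 and WT 3 were at the floor as well, so that this fold is no lower bound. Of 5 genes for transcription of mitochondrial DNA and handling of its mRNA, *Slirp*, whose product binds mitochondrial mRNA, read 13.53, 6.78, 13.79 and 12.05 in WT and 6.98, 5.64, 10.54 and 7.94 in KO cells (-3.76, SD 2.73). *Tfam*, which packages and transcribes mitochondrial DNA, was at -2.52 (SD 1.84). None of 10 translation factors was 5-fold apart. However, 5 of them (*Mtif3*, *Mtrf1*, *Mrrf*, *Mtfmt* and *Guf1*) were at the floor in all 8 cells and could show no difference.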

How the data were processed

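Each array held RNA amplified from 1 cell, 4 WT and 4 KO. The authors deposited spot intensity as scanner output of Feature Extraction 12.0.2.2 (design 028005, probes on mm9), corrected for background within an array but not normalized across them. They also deposited other columns, which flag outlier spots and signal over background. Outlier spots were left out and spots of a probe averaged. Of 55681 probes, 55295 were usable on all 8 arrays. A probe was detected where over 50% of its spots were well above background. Arrays were scaled to the 50th percentile of the 7570 probes detected on all arrays, and a floor of 50 was set before log2.

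The embryo of a cell is not named, so a genotype was 1 sample and no p-value was computed. The number of arrays limits the precision. Members and lists were chosen with earlier results of these data known. Members were named if in the rule, on the study's lists, past 5-fold without overlap, among the 6 largest differences in a direction or the 6 brightest, or among the 5 of smallest SD. Scripts were checked on simulated data with known shifts. The alternatives were other percentiles, floors of 10 and 200, a floor before scaling (in effect no scaling between arrays), quantile normalization and normexp (offset 50). Others were the mean of all probes, a mean log2 value of at least 8, outlier spots kept, 10-fold, medians over cells, and each cell left out. Cardiomyocyte arrays were not analysed here. Python 3.11.15, numpy 2.4.6, pandas 2.3.3, R 4.3.3 with limma 3.58.1 and matplotlib 3.10.9 were used.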

Additional observations from a re-analysis of the deposited data

Results flagged for a closer look

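In 9 of 44 groups of 4 cells (in each genotype, 20 named members, the median over the members and the number of members detected), 1 cell stood far from the others, with the gap to its nearest neighbour taking more of the whole range of the group than Dixon's critical value for 4 samples. Chance flags about 1 in 20 groups of freely varying values, a rate that does not hold where 3 cells share the floor or where genes were named for a large difference, so the number of such groups has no reference here. The share of the range was 1 for *Mrpl14* and *Mrps18a* in WT cells and for *Mrps9*, *Mrpl36*, *Mrpl41* and *Mrps16* in KO cells, where in each case 3 cells were at the floor and 1 was above it. Those cells were WT 2 (10.89) for *Mrpl14*, WT 3 (12.42) for *Mrps18a*, KO 3 (10.64) for *Mrps9*, KO 4 for *Mrpl36* (7.22) and *Mrps16* (6.59), and KO 1 (11.29) for *Mrpl41*. The share was 0.965 for *Mrpl20* in KO cells, with KO 1 below the rest at 12.60, and 0.878 for *Mrps21*, with KO 3 below at 11.70. It was 0.907 for *Mrps12*, with KO 2 below at 5.72.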

How the results depend on the processing

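None of the 507 values recomputed under the 20 alternatives changed the sign of a difference past 5-fold, and 486 moved by less than the SD between cells or, for counts, by at most 1.5 times. This is a wide measure, so that a member could fall short of 5-fold and still be among the 486. *Mrpl50* (SD 2.51) did so, at 0.69 without KO 3, and so did *Mrpl41* (SD 3.06), at -1.52 with the mean of its probes. With a floor of 10 the number of members at least 5-fold higher was 15, with 10 lower. With a floor of 200 the number lower was 3, the number with KO cells below WT cells without overlap was 1, and the differences of *Mrps34* and *Mrps16* were 4.82 and -4.40. In the setting with a floor before scaling, the 50th percentile was taken over all probes and fell at the floor. The arrays were thus in effect not scaled in that setting. Under it and under quantile normalization, 2 members had KO cells above WT cells without overlap. Over members with a mean log2 value of at least 8, 1 had KO cells below WT cells without overlap. *Mrpl10* fell short of 5-fold with a floor of 200 (-1.50) and with the mean of its probes (-2.06). At 10-fold, 7 members were higher and 2 lower, and as for the other floors, no share over all genes was computed. The cause of these changes was not tested, beyond the floor bounding every difference. With a cell left out, the number higher ran from 8 to 21 and the number lower from 6 to 12. The number without overlap ran from 1 to 5 (KO above) and from 2 to 3 (KO below). Without KO 1, which gave the 5, KO cells lay above WT cells for 8.16% of the 49 members with a mean log2 value of at least 8. The share was 6.44% for all genes of that level. KO cells lay below WT cells for 4.08% and 1.75%. The median difference ran from -0.38 to 0.48, *Mrps34* from 5.63 to 7.02 and *Mrps16* from -6.79 to -5.03. The share of higher among members past 5-fold was 50% as reported, 60% with a floor of 10 or normexp and 70% with a floor of 200. With a cell left out it ran from 42.1% (without WT 1) to 72.4% (without WT 2). Among members past 10-fold it was 77.8%. No paired analysis was possible because no test was made and no label pairs the cells.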
